A study of Mus musculus with 52 samples.

Results

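The nuclear genes for subunits of the mitochondrial respiratory chain and of ATP synthase were followed in mouse intestinal organoids over 5 days of growth under a retinoid, a retinoid receptor antagonist or vehicle. The genes were chosen by a rule on symbols that used no measured value, though earlier results of these data were known. The rule took symbols starting with Ndufa, Ndufb, Ndufc, Ndufs or Ndufv and a digit, and the symbols Sdha, Sdhb, Sdhc and Sdhd. It also took symbols starting with Uqcr, with Cox and a digit from 4 to 8, or with Atp5. The chosen genes numbered 85 of the 24116 genes in the table. Of these, 35 belong to complex I, 4 to complex II, 8 to complex III, 18 to complex IV and 17 to ATP synthase (complex V), and 3 stand outside the complexes: the supercomplex factor Cox7a2l, the pseudogene Ndufs5-ps and Ndufa4l2, a paralog of Ndufa4. Of the 85 genes, 79 passed the filter on low values (at least 1 RPKM in at least 4 libraries) and were tested. The other 6 were Cox4i2, Cox6a2, Cox7b2, Cox8b, Cox8c and Ndufa4l2.

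The respiratory chain passes electrons through the inner mitochondrial membrane to oxygen and pumps protons on the way. Complex I takes them from NADH, complex II from succinate, complex III hands them from ubiquinol to cytochrome c, and complex IV passes them on to oxygen, while ATP synthase uses the proton gradient to make ATP. Complex II is also the succinate dehydrogenase of the citric acid cycle, and all of its subunits are encoded in the nucleus, whereas the other complexes each also hold subunits encoded in mitochondrial DNA, which were not analysed here. In the intestine, absorptive enterocytes are rich in mitochondria and rely on oxidative metabolism.

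Organoids, self-organising epithelial cultures, were grown from single intestinal cells of 2 wild type C57BL/6 male littermates aged 8 weeks, with 1 culture per mouse and the RNA of 3 wells pooled. They received 10 µM all-trans retinoic acid (atRA, which activates the retinoic acid receptors), 5 µM of an antagonist of the retinoid X receptors (RXRi) or the vehicle DMSO on day 0 and again on day 3, and were sampled on days 1, 3, 4 and 5, with a DMSO group on day 0. The retinoid X receptors are partners of the retinoic acid receptors and of several other nuclear receptors, among them the PPARs. Until day 3 the medium of every group held Wnt3a-conditioned medium, the GSK3 inhibitor CHIR99021 and a ROCK inhibitor beside EGF, Noggin and R-spondin, and from day 3 it held only the 3 growth factors. There were 13 groups of day and treatment, and in each the RNA of both cultures was purified in duplicate.

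Libraries of messenger RNA were deposited as RPKM (read counts divided by gene length and by the reads of the library). The 51 libraries used held 12895667 to 26206028 reads (median 19686970). Duplicate 2 of culture 1 of the day 1 DMSO group, with 12443 reads, was left out, so that culture rests on 1 library. Markers of intestinal epithelium summed to 2961 to 3175 RPKM in the day 0 DMSO libraries, those of mesenchymal cells to 18.1 to 23.9 RPKM, those of immune cells to 2.02 to 3.86 RPKM and those of endothelial cells to 0.267 to 0.299 RPKM. The cell type markers of the RXRi libraries differed from those of the other groups. On day 5 the summed level of 10 enterocyte markers was 73.8 to 130 RPKM in RXRi libraries against 15429 to 20284 RPKM in DMSO libraries, and that of 6 fetal-like markers was 6849 to 7806 RPKM in RXRi libraries against 271 to 540 RPKM in DMSO libraries.

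Stretches of 250 bases before the annotated start of 6 member genes are shown because these genes mark the range of the responses described below: Sdha, Sdhd and Atp5g3 fell strongly with RXRi, Cox7a1 fell most, and Ndufs5 and Atp5e did not pass the test on day 5. They are RefSeq sequences of GRCm38.p6, the patch series of the submitters' build mm10, written 5′ to 3′ on the gene's strand, and capitals mark matches on either strand to the motif of nuclear respiratory factor NRF1, the only one in the Sdha stretch, the ETS motif read by GABP (CCGGAAG) or the motif of the estrogen-related receptors (ERR, TCAAGGTCA).
Sdha (chr13:74350241-74350490, minus strand, NRF1 motif 3 times): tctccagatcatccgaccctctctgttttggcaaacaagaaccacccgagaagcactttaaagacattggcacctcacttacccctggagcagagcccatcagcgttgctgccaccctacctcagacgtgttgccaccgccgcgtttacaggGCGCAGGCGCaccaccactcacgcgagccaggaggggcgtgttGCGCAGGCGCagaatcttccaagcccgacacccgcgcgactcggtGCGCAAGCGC
Sdhd (chr9:50603850-50604099, minus strand, NRF1 and ETS motifs): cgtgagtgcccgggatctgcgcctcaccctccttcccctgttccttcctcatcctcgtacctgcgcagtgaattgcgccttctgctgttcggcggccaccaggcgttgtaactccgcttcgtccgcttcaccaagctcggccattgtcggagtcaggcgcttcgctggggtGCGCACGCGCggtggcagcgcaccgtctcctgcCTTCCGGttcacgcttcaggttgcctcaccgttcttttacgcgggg
Atp5g3 (chr2:73911327-73911576, minus strand, ERR motif): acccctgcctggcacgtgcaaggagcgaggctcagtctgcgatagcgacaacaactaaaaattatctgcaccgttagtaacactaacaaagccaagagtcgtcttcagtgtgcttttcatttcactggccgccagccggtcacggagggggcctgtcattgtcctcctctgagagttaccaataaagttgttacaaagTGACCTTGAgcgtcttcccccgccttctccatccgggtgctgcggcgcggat
Cox7a1 (chr7:30183921-30184170, plus strand, no match): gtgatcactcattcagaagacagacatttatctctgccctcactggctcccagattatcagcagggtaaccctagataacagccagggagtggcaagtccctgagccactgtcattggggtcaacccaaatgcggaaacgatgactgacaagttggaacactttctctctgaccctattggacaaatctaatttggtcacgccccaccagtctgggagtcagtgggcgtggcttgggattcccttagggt
Ndufs5 (chr4:123718187-123718436, minus strand, NRF1 motif): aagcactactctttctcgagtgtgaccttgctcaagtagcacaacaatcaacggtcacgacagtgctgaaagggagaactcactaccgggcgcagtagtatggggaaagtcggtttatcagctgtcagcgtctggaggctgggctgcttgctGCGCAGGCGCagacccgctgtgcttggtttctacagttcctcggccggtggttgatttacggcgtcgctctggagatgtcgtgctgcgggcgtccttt
Atp5e (chr2:174464102-174464351, minus strand, ETS motif): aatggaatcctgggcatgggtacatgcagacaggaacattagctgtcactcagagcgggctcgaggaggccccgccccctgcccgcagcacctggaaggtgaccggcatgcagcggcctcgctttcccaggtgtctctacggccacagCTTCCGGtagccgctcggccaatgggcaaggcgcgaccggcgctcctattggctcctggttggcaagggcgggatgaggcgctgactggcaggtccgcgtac

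A sequence of this kind was found for 63 of the 85 genes. The 61 tested members were set beside 7604 promoters of tested genes of the same length, which include the members themselves. The NRF1 motif was present in 11 of 61 member promoters (18.0%) and in 8.9% of all 7604. The ETS motif was in 11 (18.0%) and 15.0%, and the ERR motif in 1 (1.6%) and 0.2%. Members that fell with RXRi on day 5 and members that did not both held these letters: of 53 that fell, 9 had the NRF1 and 10 the ETS motif, and of 8 that did not pass, 2 had the NRF1 and 1 the ETS motif. A match describes the letters only, and its absence says nothing of the factor.

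The subunit genes were abundant, and within each complex their levels, given per length as mean RPKM over all libraries used, spread widely. Atp5b, the catalytic beta subunit of ATP synthase, was the highest of all at 1281 RPKM, and Atp5md, a small membrane subunit, was the lowest of that complex at 53.0 RPKM. In complex IV, Cox4i1, the widely expressed form of subunit 4, led at 782 RPKM. In complex III the range ran from 155 RPKM for Uqcrb to 417 RPKM for Uqcrq, and in complex II from 177 RPKM for Sdhb, the iron-sulfur subunit, to 277 RPKM for Sdhd, a membrane anchor. In complex I, Ndufa6, an accessory subunit, was highest at 282 RPKM, and Ndufa11 lowest at 17.4 RPKM.

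Subunits with tissue isoforms were carried almost wholly by the widely expressed form. Cox8b and Cox8c were listed at 0 in every library, Cox4i2 and Cox7b2 never exceeded 0.0574 and 0.0703 RPKM, Cox6a2, the heart and muscle form of subunit 6a, reached at most 1.07 RPKM, and Ndufa4l2 at most 2.32 RPKM. Cox6b2, known as the testis form of subunit 6b, averaged 2.26 RPKM. The exception was Cox7a1, known from heart, muscle and brown fat, which lay between 0.815 and 112 RPKM, beside 129 to 303 RPKM for its widely expressed counterpart Cox7a2. In all, 28 members overlap another annotated gene, and the use of strand in counting is not given in the sources used here. Ndufs5 and its processed copy Ndufs5-ps may share reads, so both are uncertain.

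With the RXR antagonist, most subunit genes of every complex were lower than with DMSO on day 5. Their summed level was 11171 ± 465 RPKM in RXRi cultures against 19402 ± 1789 RPKM in DMSO cultures (SD, n = 2 cultures each), or 57.6% of DMSO. Of 79 members, 67 fell and 0 rose (limma, Benjamini-Hochberg adjusted over 12443 genes), while 35.1% of all genes tested were called lower and 28.7% higher. The median log2 fold change was -0.70 over the members and -0.06 over all genes, and 76 of 79 members lay below 0. The members took 0.987% to 1.087% of reads in the RXRi libraries and 1.771% to 2.06% in the DMSO libraries, whereas the 20 genes with most reads took 12.987% to 13.486% in the RXRi libraries and 7.721% to 8.298% in the DMSO libraries. In bulk samples, fewer cells of a type and less RNA per cell cannot be told apart. Beside these falls, all 10 enterocyte, 6 Paneth, 6 goblet, 6 enteroendocrine and 10 stem and proliferating markers fell and all 6 fetal-like markers rose. Summed tuft cell markers were also higher, at 32.2 to 36.6 RPKM in RXRi libraries against 1.21 to 1.79 RPKM in DMSO libraries. Summed markers of intestinal epithelium were at 10005 to 10891 RPKM with RXRi against 2703 to 3342 RPKM with DMSO. The part of these markers in the result was not tested. Without culture 2 of the DMSO group, 55 members fell, and without culture 1 of the RXRi group, 59.

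**Figure D1:**
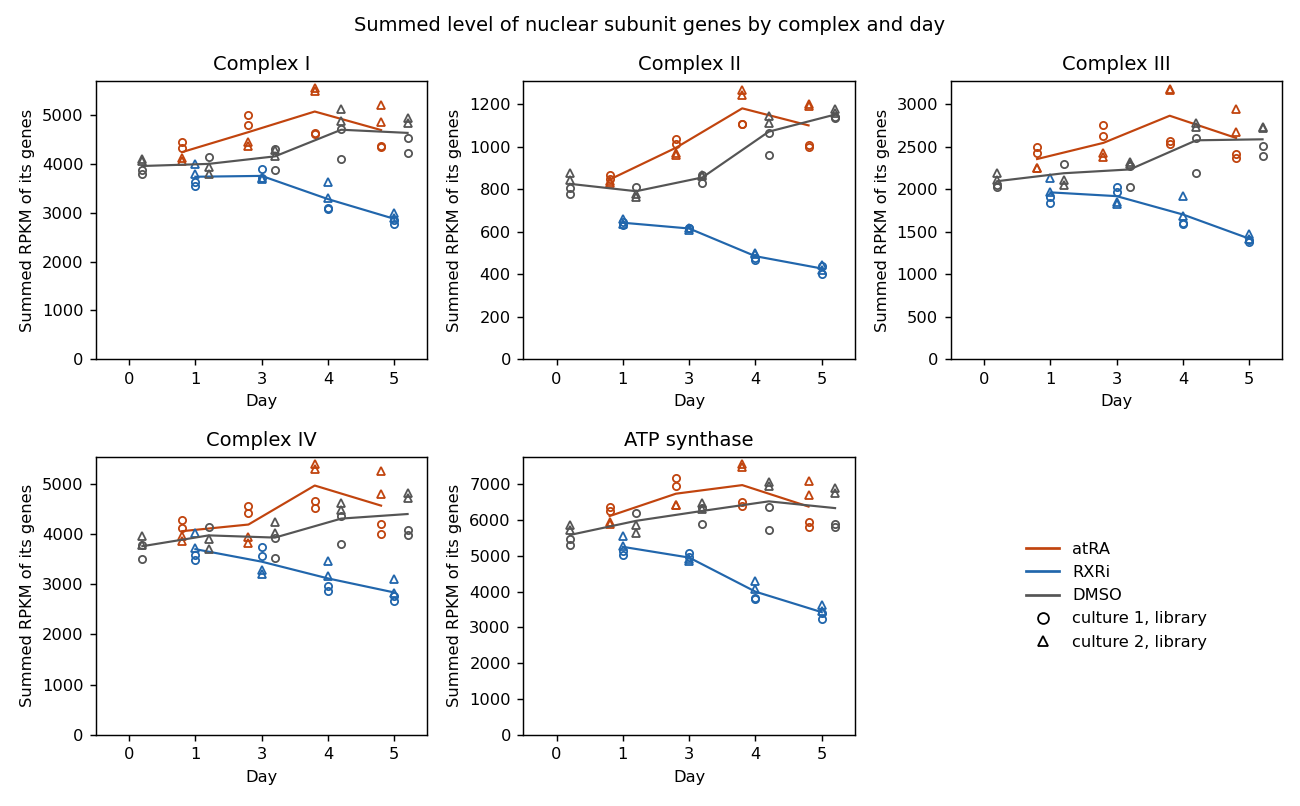
Summed RPKM of the nuclear subunit genes of each complex (vertical axis) in each library on days 0 to 5 (horizontal axis), with circles for culture 1, triangles for culture 2 and lines through the group means for atRA, RXRi and DMSO. On day 5 complex II summed to 402 to 444 RPKM in RXRi libraries, below every DMSO library (1134 to 1175 RPKM).

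Complex II, which feeds electrons from succinate, had the lowest median of the complexes on day 5. All 4 of its genes fell, with a median log2 fold change of -1.42, and their sum was 426 ± 8.71 RPKM in RXRi cultures against 1151 ± 22.2 RPKM in DMSO cultures (SD, n = 2), or 37% of DMSO. Sdhb (Entrez 67680, GRCm38.p6 chr4:140961271-140979198), which carries the iron-sulfur clusters, had 92.2, 86.0, 83.5 and 92.1 RPKM in the RXRi libraries against 259, 286, 274 and 278 RPKM in the DMSO libraries. The groups did not overlap, and the duplicates of a culture lay at least as far apart as the culture means did. Its log2 fold change was -1.62 ± 0.11 (SE; limma, Benjamini-Hochberg adjusted p = 7.81e-10), 3.08-fold lower on the scale of RPKM + 1.

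The catalytic flavoprotein Sdha had 109, 103, 107 and 105 RPKM in the RXRi libraries against 270, 278, 279 and 283 RPKM in the DMSO libraries. The spread within each group was small beside the gap, and Sdha had the smallest adjusted p of all members (log2 -1.38 ± 0.063; limma, adjusted p = 5.62e-12). The membrane anchors followed: Sdhd had 130, 117, 125 and 134 RPKM with RXRi against 350, 333, 359 and 359 RPKM with DMSO (log2 -1.46 ± 0.11). Sdhc had 107, 96.5, 105 and 113 RPKM with RXRi against 254, 241, 247 and 256 RPKM with DMSO (log2 -1.24 ± 0.10). No RXRi library reached a DMSO library for either gene.

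In complex I, the entry point for NADH, 28 of 35 genes fell on day 5 and 0 rose, with a median of -0.53 and a sum of 2877 ± 94.1 RPKM in RXRi cultures against 4640 ± 361 RPKM in DMSO cultures (SD, n = 2). Its core subunits, which bind the flavin and the iron-sulfur clusters or the quinone, fell in 7 of 7 cases, within a narrow range of -1.22 to -0.84 and a median of -0.89. Ndufv1, which binds the flavin and NADH, had 52.9, 51.6, 62.8 and 64.6 RPKM with RXRi against 124, 127, 151 and 144 RPKM with DMSO. Culture 2 was higher than culture 1 in both groups, and the groups did not overlap (log2 -1.22 ± 0.13). Ndufs1, the largest core subunit, changed by -0.99 ± 0.077.

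The 28 accessory subunits of complex I, which surround the core and serve assembly and stability, ranged from -1.43 to 0.11, with 21 lower and a median of -0.50. Ndufb5, a subunit of the membrane arm, had 62.9, 61.6, 61.6 and 62.9 RPKM with RXRi against 150, 165, 186 and 179 RPKM with DMSO. The RXRi libraries were nearly alike and far below the DMSO libraries (log2 -1.43 ± 0.11; limma, adjusted p = 3.5e-09). Ndufa6, a subunit of the LYR family, changed by -1.23 ± 0.11 and Ndufa10, of the membrane arm, by -1.19 ± 0.093. The division into core and accessory subunits was chosen after values were seen and was not tested.

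Some accessory subunits did not fall. Ndufs4, a late-assembled subunit of the NADH-binding module, had 63.4, 63.6, 59.9 and 60.3 RPKM in the RXRi libraries against 59.2, 57.7, 56.2 and 56.3 RPKM in the DMSO libraries on day 5. Every RXRi library was above every DMSO library, by little, and the test was not passed (log2 0.11 ± 0.081; limma, adjusted p = 0.262). Ndufs5 had 48.7, 48.4, 52.7 and 55.7 RPKM with RXRi against 47.2, 48.6, 54.4 and 48.2 RPKM with DMSO, overlapping throughout (log2 0.05 ± 0.13), and Ndufs5-ps was at -0.06 ± 0.12. Ndufa7 was at -0.03 ± 0.12 and Ndufa11 at -0.14 ± 0.14, and Ndufa2, Ndufa3 and Ndufa13 at -0.18, -0.27 and -0.18. Ndufa2, Ndufa3, Ndufa7 and Ndufa13 are named because they complete the 12 members not called on day 5, after their values were seen.

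In complex III, the ubiquinol to cytochrome c step, 7 of 8 genes fell on day 5, with a median of -0.90 and a sum of 1418 ± 33.5 RPKM in RXRi cultures against 2588 ± 192 RPKM in DMSO cultures (SD, n = 2). Uqcrfs1, the Rieske iron-sulfur protein, had 94.0, 91.5, 99.5 and 104 RPKM with RXRi against 243, 224, 247 and 247 RPKM with DMSO (log2 -1.29 ± 0.10; limma, adjusted p = 8.03e-09). No RXRi library came near a DMSO library; this gene was picked after its values were seen. Uqcrh, the hinge protein that contacts cytochrome c1, changed by -1.24 ± 0.11 and the core protein gene Uqcrc2 by -1.04 ± 0.076.

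Uqcrq, a small subunit beside cytochrome b, was the complex III gene that did not pass. It had 363, 354, 345 and 369 RPKM in RXRi libraries against 356, 537, 503 and 499 RPKM in DMSO libraries on day 5. The first DMSO library lay among the RXRi libraries and the other 3 above them (log2 -0.39 ± 0.17; limma, adjusted p = 0.055, and 0.0476 with the culture as a block). On day 3 it had 506, 499, 383 and 389 RPKM with RXRi against 270, 351, 367 and 383 RPKM with DMSO, and on day 4 448, 419, 595 and 441 RPKM with RXRi against 360, 509, 515 and 492 RPKM with DMSO. Its log2 fold change was 0.37 ± 0.17 on day 3 and 0.02 ± 0.17 on day 4, neither past the test. Uqcrq overlaps the gene Gdf9.

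**Figure D2:**
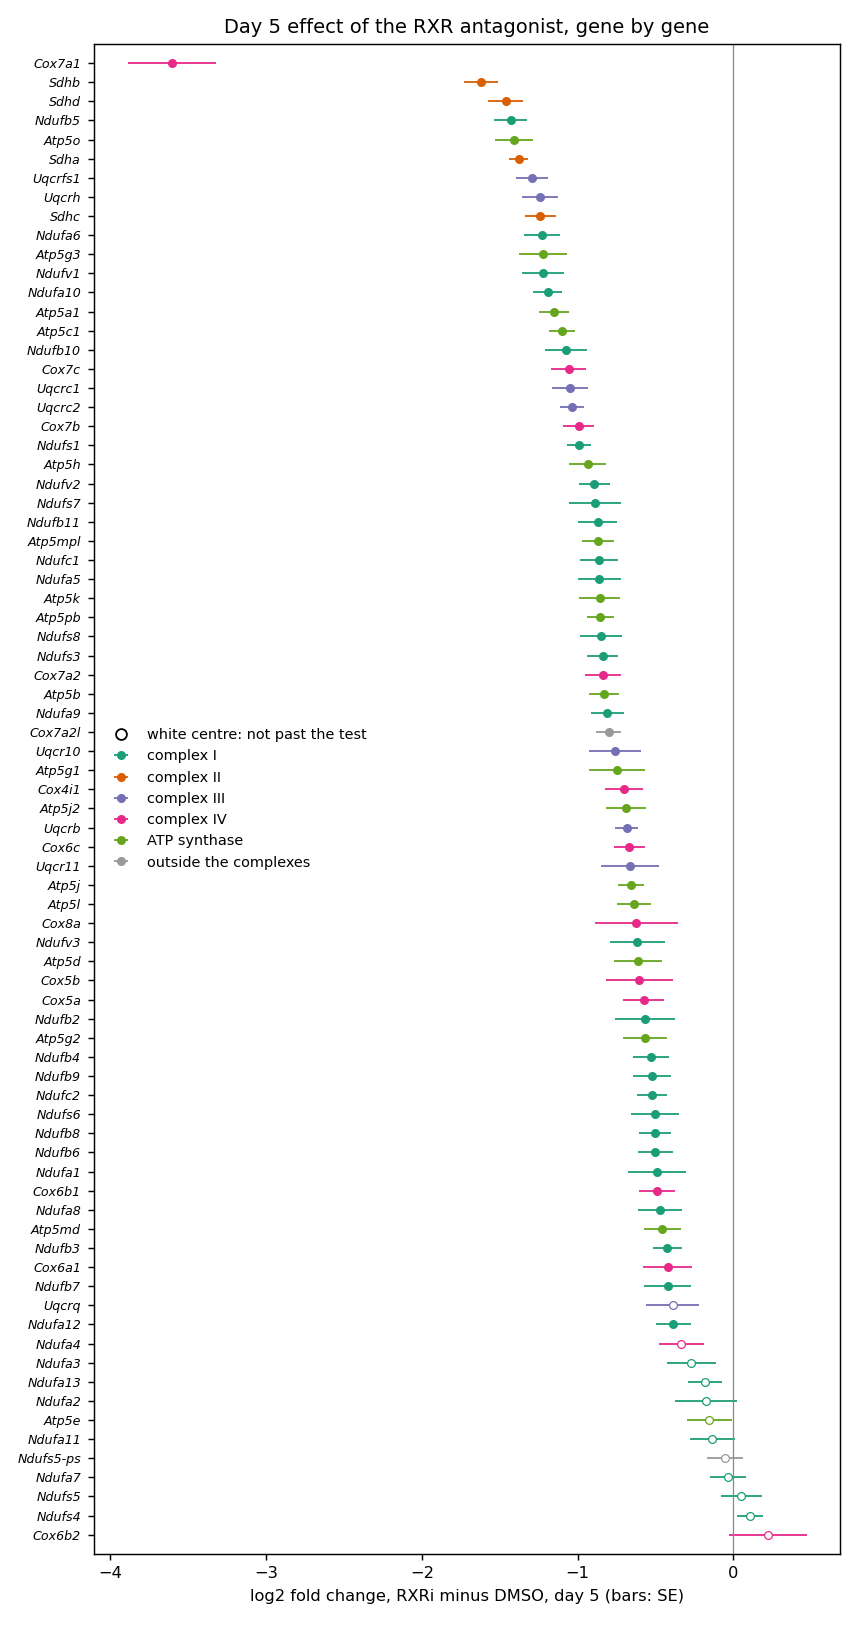
Log2 fold change of RXRi minus DMSO on day 5 (horizontal axis, bars are standard errors) for 78 of the 79 genes tested, from the lowest at the top to the highest, coloured by complex, with white centres for the 12 genes not past the test. The 4 genes of complex II lie between -1.62 and -1.24 and Cox7a1 stands apart at -3.60.

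In complex IV, cytochrome c oxidase, 11 of 13 tested genes fell on day 5, with a median of -0.63 and a sum of 2836 ± 175 RPKM in RXRi cultures against 4400 ± 525 RPKM in DMSO cultures (SD, n = 2). Cox7a1 (Entrez 12865, chr7:30184171-30186030) had 2.36, 4.78, 2.75 and 3.70 RPKM in the RXRi libraries against 43.8, 51.5, 58.5 and 52.6 RPKM in the DMSO libraries. The RXRi libraries were all below the DMSO libraries, and the log2 fold change was -3.60 ± 0.28 (limma, adjusted p = 7.72e-09), 12.2-fold lower on the scale of RPKM + 1. Its counterpart Cox7a2 had 129, 129, 141 and 154 RPKM with RXRi against 246, 228, 255 and 261 RPKM with DMSO (log2 -0.84 ± 0.12), also without overlap.

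The other subunits of complex IV covered a range of smaller changes. Cox7c and Cox7b, small subunits at the edge of the enzyme, changed by -1.06 ± 0.11 and -0.99 ± 0.099. Cox4i1, a regulatory subunit, changed by -0.70 ± 0.12, Cox5a by -0.58 ± 0.13 and Cox6b1, which bridges the monomers of the dimer, by -0.49 ± 0.11. Cox6a1 (-0.42 ± 0.16) and Cox8a (-0.63 ± 0.27) were close to the threshold, with limma adjusted p = 0.0284 and 0.0499. Both lost the call without culture 2 of the DMSO group (limma, Benjamini-Hochberg adjusted p = 0.154 and 0.414), and Cox8a also with the culture as a block (adjusted p = 0.0532). Ndufa4, now counted with complex IV, was at -0.33 ± 0.14 (limma, adjusted p = 0.052, and 0.0273 with the culture as a block), and Cox6b2 at 0.22 ± 0.25. Outside the complexes, the supercomplex factor Cox7a2l changed by -0.80 ± 0.082.

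In ATP synthase, 16 of 17 genes fell on day 5, with a median of -0.83 and a sum of 3424 ± 154 RPKM in RXRi cultures against 6331 ± 682 RPKM in DMSO cultures (SD, n = 2). Of the catalytic head, the alpha, gamma and beta subunit genes Atp5a1, Atp5c1 and Atp5b changed by -1.15 ± 0.096, -1.10 ± 0.0835 and -0.83 ± 0.097. Atp5o, the stalk subunit that holds the head in place, had 163, 143, 156 and 166 RPKM with RXRi against 382, 385, 460 and 447 RPKM with DMSO (log2 -1.41 ± 0.12), with no overlap; it was picked after its values were seen. The 3 genes for the same membrane ring protein differed in size of change, with Atp5g3 at -1.22 ± 0.16, Atp5g1 at -0.75 ± 0.18 and Atp5g2 at -0.57 ± 0.14, a difference that was not tested. Atp5g2 lost its call without culture 2 of the DMSO group (-0.30; limma, adjusted p = 0.0646).

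The exception was Atp5e, the small epsilon subunit at the foot of the central stalk, also named after its values were seen. It had 311, 295, 337 and 359 RPKM in RXRi libraries against 354, 340, 374 and 378 RPKM in DMSO libraries on day 5. The groups overlapped, and the change was -0.15 ± 0.14 (limma, adjusted p = 0.357). Over all libraries used, Atp5e stayed between 277 and 421 RPKM.

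**Figure D3:**
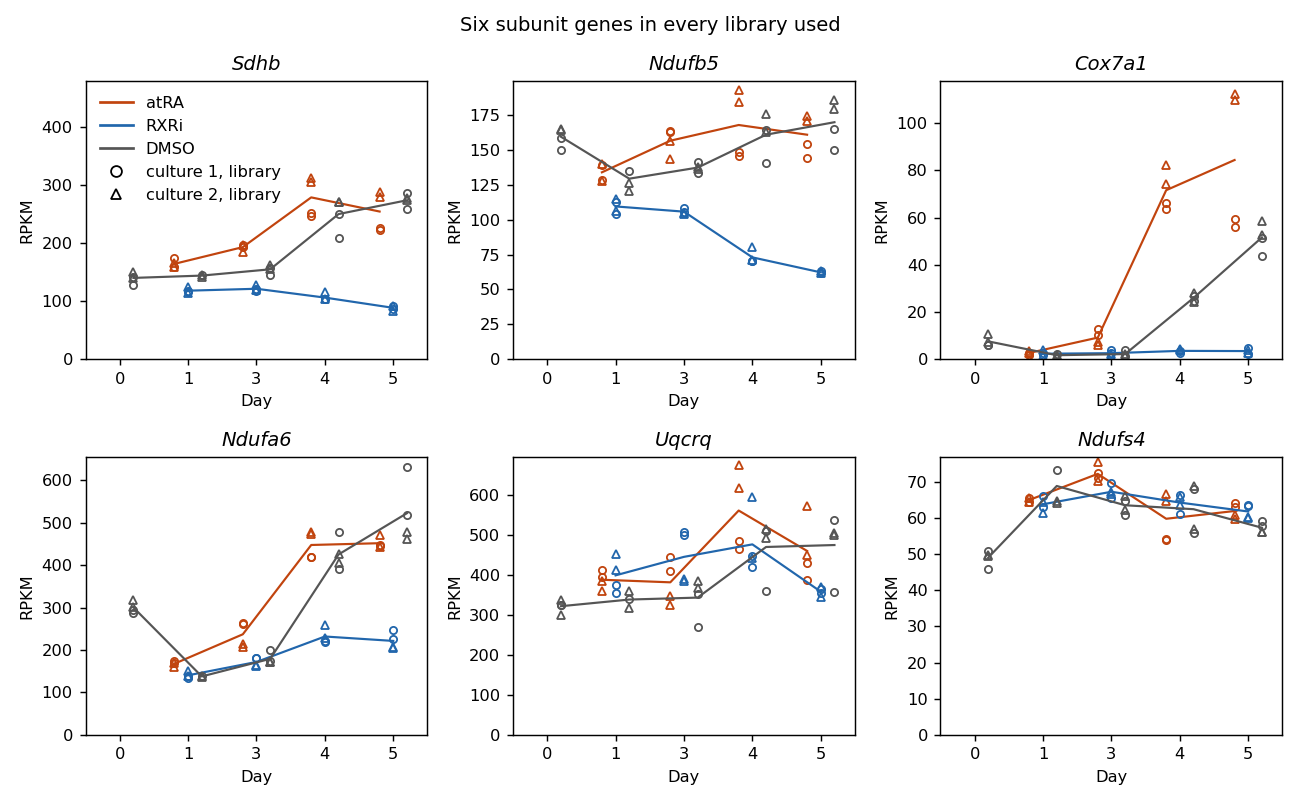
RPKM (vertical axis) of 6 subunit genes in each library on days 0 to 5 (horizontal axis), with circles for culture 1, triangles for culture 2 and lines through the group means for atRA, RXRi and DMSO. Sdhb and Ndufb5 are lower in all RXRi libraries than in DMSO libraries from day 1 on, Cox7a1 is at 2.36 to 4.78 RPKM in RXRi libraries on day 5, and Ndufs4 is at 59.9 to 63.6 RPKM there against 56.2 to 59.2 RPKM with DMSO.

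The effect of RXRi on the members was small on day 1, where the share called lower was below that of all genes, and grew with the days. On day 1, 6 of 79 members were lower and 0 higher, against 9.93% and 10.5% of all genes, with a median of -0.16 against 0.00. Among them were the complex II genes Sdhd (-0.42 ± 0.11) and Sdha (-0.19 ± 0.063), the complex I core gene Ndufs3 (-0.35 ± 0.10), Uqcrh (-0.40 ± 0.11) and Atp5c1 (-0.25 ± 0.0835), and limma adjusted p lay between 0.0124 and 0.0457. These calls rested on each culture: 0 members were called without culture 1 of the DMSO group or of the RXRi group, 3 without culture 2 of the DMSO group and 1 without culture 2 of the RXRi group. With the shallow library kept, 9 members were lower and 6 higher.

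On day 3, 24 members were lower and 1 higher, against 25.4% and 18.4% of all genes, with a median of -0.20 against -0.07. The share of members called lower was not far above that of all genes. The lower ones were all 4 genes of complex II (median -0.44), 7 of 35 of complex I, among them 4 of its 7 core genes, 4 of 8 of complex III, 0 of 13 of complex IV, 8 of 17 of ATP synthase and Cox7a2l. Sdha was at -0.52 ± 0.063 (limma, adjusted p = 4.79e-06), Sdhd at -0.59 ± 0.11 and Uqcrh at -0.56 ± 0.11. The higher one was Ndufb3, a membrane arm subunit of complex I, with 67.2, 68.9, 71.7 and 72.4 RPKM in RXRi libraries against 58.3, 62.0, 55.2 and 57.6 RPKM in DMSO libraries. All RXRi libraries lay above the DMSO libraries, by 0.26 ± 0.096 on the log2 scale (limma, adjusted p = 0.0351), a call lost when any of the 4 cultures was left out (adjusted p 0.0579 to 0.185). Without culture 1 or culture 2 of the DMSO group, or culture 2 of the RXRi group, 16, 14 and 13 members were called, and 14 with the shallow library.

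On day 4, after the change of medium, 59 members were lower and 0 higher, against 37.0% and 22.0% of all genes, with a median of -0.58 against -0.13. All 59 were among the 67 that were lower on day 5, which is 100% of the day 4 list and 88.1% of the day 5 list. With 67 of 79 members lower on day 5, a large overlap follows from the size of that list. The overlap over all genes was not computed. The days do not share libraries but come from the same 2 mice. Those on day 5 only were Cox5b, Cox6a1, Cox8a, Ndufa1, Ndufb2, Ndufb3, Ndufb7 and Ndufs6. The order of the complexes on day 4 was that of day 5, with medians of -1.16 for complex II, -0.71 for complex III, -0.66 for ATP synthase, -0.47 for complex IV and -0.45 for complex I, and -0.86 for the complex I core genes against -0.34 for the accessory genes. Sdha was at -1.10 ± 0.063, Sdhb at -1.22 ± 0.11, Ndufb5 at -1.13 ± 0.11 and Cox7a1 at -2.60 ± 0.28. Under median-of-ratios scaling the median of all genes moved to -0.01 and that of the members to -0.42; the calls over all genes were 2739 higher and 4600 lower, and 3668 and 3676 under that scaling.

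The growth of the effect was tested as the day 5 effect minus the day 1 effect. For 49 of 79 members it was lower on day 5 and for 0 higher, against 23.6% and 17.8% of all genes, with a median of -0.59 against -0.05. Among them were all 4 genes of complex II, 20 of 35 of complex I, 6 of 8 of complex III, 6 of 13 of complex IV and 12 of 17 of ATP synthase. The difference was -1.19 ± 0.089 for Sdha (limma, adjusted p = 1.98e-08), -1.34 ± 0.15 for Sdhb, -1.25 ± 0.16 for Ndufa6 and -3.89 ± 0.40 for Cox7a1. For Ndufs4 it was 0.21 ± 0.11, not past the test. In the day 1 DMSO libraries Cox7a1 lay near the 1 RPKM added before taking logs, so a fall could hardly show that day. Over the 4 days the summed level of all members with RXRi was 90.4%, 84.4%, 65.7% and 57.6% of that with DMSO on days 1, 3, 4 and 5, and for complex II it was 81.2%, 71.9%, 45.2% and 37%.

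Averaged over the 4 days, 65 members were lower with RXRi and 1 was higher, against 42.8% and 30.1% of all genes, with a median of -0.42 against -0.07. The higher one was the pseudogene Ndufs5-ps, at 0.14 ± 0.059 (limma, adjusted p = 0.0436), which lies within the gene Zbtb20. That call was lost when single cultures were left out, for instance without culture 1 of the day 4 DMSO group (0.09; limma, Benjamini-Hochberg adjusted p = 0.136).

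**Figure D4:**
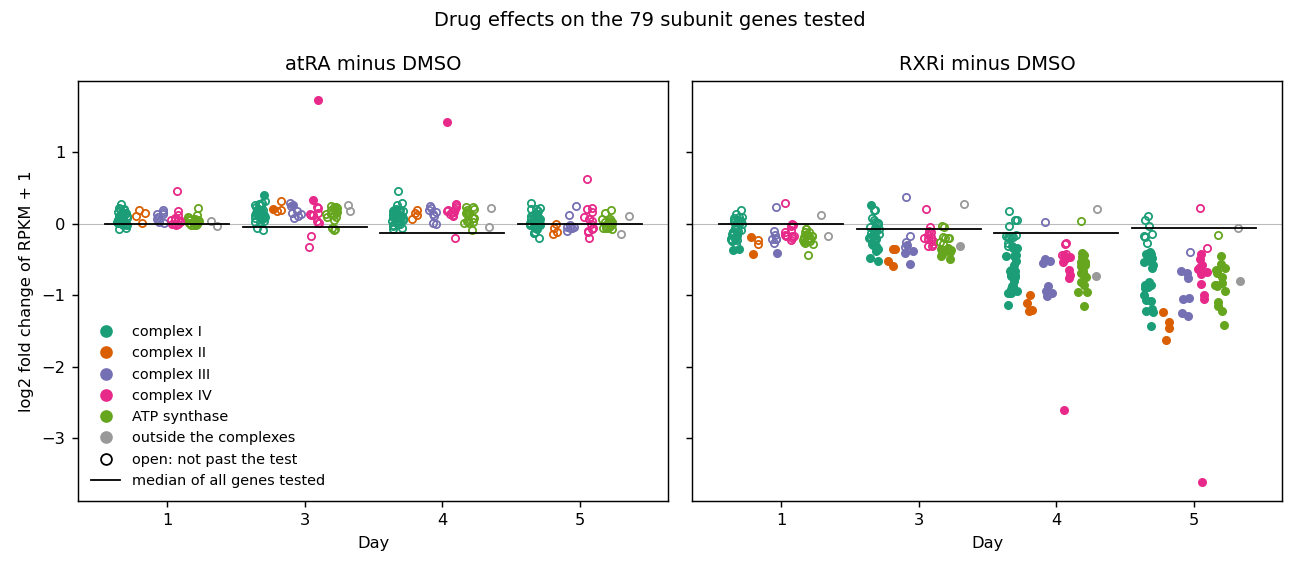
Log2 fold change against DMSO (vertical axis) of the 79 genes tested on days 1, 3, 4 and 5 (horizontal axis), with atRA on the left and RXRi on the right, coloured by complex. Filled points passed the test and black lines mark the median of all genes; with RXRi the number of filled points below 0 is 6, 24, 59 and 67 on the 4 days.

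Transcript length differed between the members, and their values were read beside it. The 54 members with under 1000 bases of exon had a median of -0.62 on day 5, the 19 with 1000 to 2000 bases -1.04 and the 6 above 2000 bases -0.92, while all genes in these bands had medians of -0.12, -0.11 and -0.04. Across the 79 members the Spearman correlation of length and log2 fold change was -0.36 on day 5 and -0.48 on day 4, and over all genes it was 0.06 and 0.02 (n = 12438). These are descriptions across genes that share libraries. The part of length in the order of the members was not tested.

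**Figure D5:**
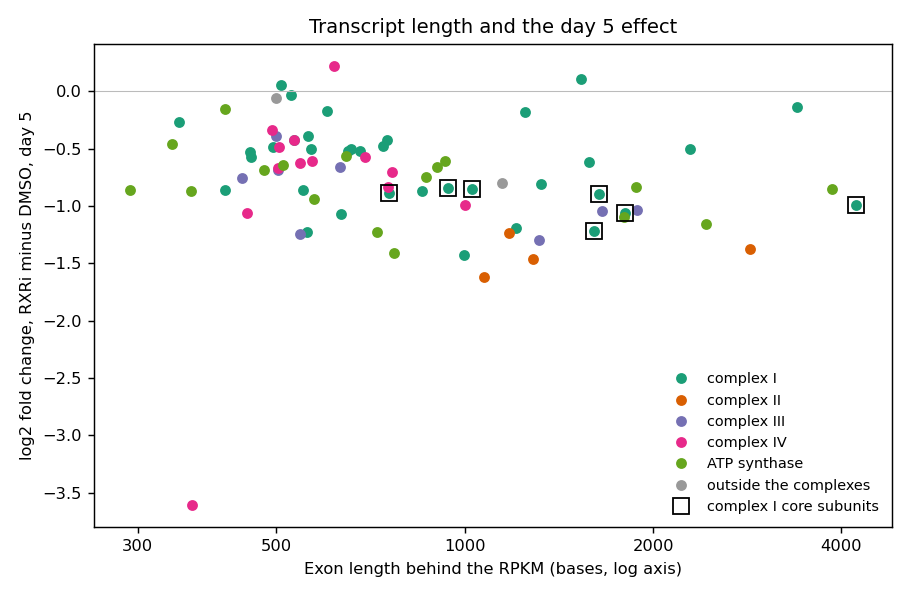
Log2 fold change of RXRi minus DMSO on day 5 (vertical axis) against the exon length of each of the 79 genes (horizontal log axis, bases), coloured by complex, with squares round the 7 core genes of complex I. The 54 genes under 1000 bases have a median of -0.62 and the 19 genes between 1000 and 2000 bases a median of -1.04.

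With atRA few subunit genes changed, and those that did were higher. Over the mean of the 4 days their share was close to that of all genes called higher. Averaged over the 4 days, 6 of 79 members were higher and 0 lower, against 7.98% and 15.0% of all genes, with a median of 0.09 against -0.04. They were Cox7a1 (1.06 ± 0.14; limma, adjusted p = 3.09e-05), Cox7b (0.19 ± 0.050), Cox6c, another small subunit of complex IV (0.16 ± 0.050), Ndufa1, an X-linked accessory subunit of complex I (0.31 ± 0.094), Sdha (0.10 ± 0.032) and Atp5j2, a membrane subunit of ATP synthase (0.20 ± 0.064). The count was unstable: it was 2 without culture 1 of the day 1 atRA group, 17 without culture 1 of the day 4 atRA group, 16 without culture 1 of the day 5 atRA group and 16 under median-of-ratios scaling, where the calls over all genes moved from 993 higher and 1861 lower to 1298 and 1252. Leaving out the day 4 or day 5 DMSO culture 2 gave 11 and 10, the day 4 DMSO culture 1 and the day 4 atRA culture 2 gave 2 each, and the day 3 atRA culture 1, the day 5 atRA culture 2, the day 1 DMSO culture 2 and the addition of the shallow library gave 3 each.

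By day, atRA gave 0 higher and 0 lower members on day 1, against 1.93% and 1.53% of all genes (limma; before adjustment, 2 were higher and 0 lower at p under 0.05). On day 3, 5 were higher and 0 lower, against 4.32% and 4.36%, with a median of 0.15 against -0.04 (before adjustment, 17 were higher at p under 0.05). On day 4, 1 was higher and 0 lower, against 3.58% and 7.35%, and 0 were called without culture 2 of the atRA group; median-of-ratios scaling gave 2, and moved the calls over all genes from 446 higher and 915 lower to 663 and 369. On day 5, 0 were higher and 0 lower, against 2.14% and 2.89% (limma; before adjustment, 1 was higher and 0 lower at p under 0.05). The summed level of all members was 19617 ± 2295 RPKM in atRA cultures on day 5 against 19402 ± 1789 RPKM in DMSO cultures (SD, n = 2), a difference smaller than the spread between cultures.

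The atRA calls of day 3 were Cox7a1, Uqcrc2, Ndufa6, Cox7b and Sdha. Ndufa6 had 264, 262, 214 and 208 RPKM in atRA libraries against 175, 199, 171 and 172 RPKM in DMSO libraries, with culture 1 above culture 2 under atRA and no overlap between the groups (0.40 ± 0.11; limma, adjusted p = 0.0361). Uqcrc2 changed by 0.27 ± 0.076, Cox7b by 0.33 ± 0.099 and Sdha by 0.21 ± 0.063 (limma, adjusted p = 0.0342, 0.0471 and 0.0487), and Sdha missed the threshold with the culture as a block (adjusted p = 0.0523). Leaving out either culture of the DMSO group or culture 1 of the atRA group left 1 call, and leaving out culture 2 of the atRA group left 3. At the same time 9 of 10 enterocyte markers were higher with atRA on day 3. Summed goblet markers were at 1484 to 2111 RPKM with atRA against 672 to 853 RPKM with DMSO. Summed fetal-like markers were at 379 to 448 RPKM against 922 to 1044 RPKM. The part of these markers was not tested.

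Cox7a1 was the member with the largest change under atRA on days 3 and 4 and under RXRi on days 4 and 5. On day 3 it had 10.4, 12.7, 7.36 and 5.98 RPKM in atRA libraries, 3.71, 2.69, 1.39 and 2.23 RPKM in RXRi libraries and 1.13, 3.91, 1.26 and 2.19 RPKM in DMSO libraries. Every atRA library was above the others, by 1.73 ± 0.28 against DMSO (limma, adjusted p = 0.000553). On day 4 it had 63.8, 66.1, 82.4 and 74.1 RPKM in atRA libraries, 3.57, 2.51, 3.70 and 4.15 RPKM in RXRi libraries and 24.8, 26.7, 24.4 and 27.9 RPKM in DMSO libraries. The 3 groups were then fully apart (atRA against DMSO 1.43 ± 0.28; limma, adjusted p = 0.00388, and 0.0586 without culture 2 of the atRA group). On day 5 it had 59.5, 55.9, 110 and 112 RPKM in atRA libraries, against 43.8, 51.5, 58.5 and 52.6 RPKM in DMSO libraries. Culture 2 under atRA stood far above the rest and culture 1 near the DMSO range, and the difference of 0.63 ± 0.28 was not past the test (limma, adjusted p = 0.261).

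Set directly against each other over the 4 days, atRA cultures had 70 members higher than RXRi cultures and 0 lower, against 40.8% and 34.3% of all genes, with a median of 0.51 against 0.04. The difference was 1.01 ± 0.054 for Sdhb (limma, adjusted p = 1.58e-11), 1.02 ± 0.055 for Sdhd and 2.49 ± 0.14 for Cox7a1. Uqcrq (0.08 ± 0.085) and Ndufs5 (0.0041 ± 0.065) did not pass the test. Between day 1 and day 5 the atRA effect itself changed for 0 members in either direction, against 0.49% higher and 0.659% lower of all genes (limma; before adjustment, 0 were higher and 3 lower at p under 0.05).

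In vehicle-treated organoids part of the subunit genes rose over the 5 days, and none fell, while the median over all genes lay below 0. On day 5 compared with day 0, 29 of 79 members were higher and 0 lower, against 18.7% and 51.1% of all genes, with a median of 0.22 against -0.31. All 4 complex II genes were among them (median 0.41), with 8 of 35 of complex I, 5 of 8 of complex III, 7 of 13 of complex IV, 4 of 17 of ATP synthase and 1 outside the complexes. Sdhb had 259, 286, 274 and 278 RPKM on day 5 against 128, 142, 140 and 151 RPKM on day 0, with no overlap (0.96 ± 0.11; limma, adjusted p = 9.33e-07). Sdha changed by 0.49 ± 0.063, Uqcrb by 0.55 ± 0.074 and Cox5a by 0.66 ± 0.13. The number depended on the scaling: under median-of-ratios scaling, which moved the median of all genes to 0.00 and their calls from 2333 higher and 6353 lower to 3985 and 3729, 69 members were higher. It was 17 without culture 1 of the day 0 group and 13 with the shallow library. Over the same days 9 of 10 enterocyte, all 6 goblet and all 6 fetal-like markers were higher and all 10 stem and proliferating markers lower. Summed enteroendocrine markers were at 217 to 273 RPKM on day 5 against 1342 to 1812 RPKM on day 0. Summed tuft cell markers were at 1.21 to 1.79 RPKM against 6.69 to 7.95 RPKM. The part of these markers was not tested.

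The first day brought changes in both directions. On day 1 compared with day 0, 13 members were higher and 9 lower, against 25.6% and 35.6% of all genes. Both shares of members were below those of all genes. Cox5a, a matrix-side subunit of complex IV, had 330, 279 and 305 RPKM on day 1 against 169, 184, 186 and 208 RPKM on day 0, and Ndufs4 rose by 0.48 ± 0.081, Ndufs5 by 0.76 ± 0.13 and Ndufb6 by 0.65 ± 0.11. Of those lower, Ndufa6 had 138, 139 and 137 RPKM on day 1 against 288, 295, 302 and 318 RPKM on day 0 (-1.12 ± 0.11; limma, adjusted p = 3.53e-07). Cox7a2l changed by -0.92 ± 0.082, Ndufv3, a small subunit of the NADH module, by -1.05 ± 0.17, and Ndufb11 by -0.62 ± 0.12. Cox7a1 had 2.00, 1.77 and 0.815 RPKM on day 1 against 6.06, 5.95, 7.15 and 10.8 RPKM on day 0. In both sets the days did not overlap. Over the same step 7 of 10 enterocyte markers were lower and all 6 fetal-like markers higher. Summed stem and proliferating markers were at 679 to 699 RPKM on day 1 against 1544 to 1633 RPKM on day 0. Summed enteroendocrine markers were at 2037 to 2512 RPKM against 1342 to 1812 RPKM. The part of these markers was not tested. With the shallow library kept, the differences of Cox5a (-1.36), Ndufb6 (-1.13) and Uqcrb (-1.49) changed sign.

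Between days 1 and 3, 4 members were higher and 0 lower, against 6.19% and 6.49% of all genes. The share of members called higher was close to that of all genes. They were Sdha (0.26 ± 0.063), Ndufv3 (0.62 ± 0.17), Ndufa6 (0.37 ± 0.11) and Cox6b2 (1.00 ± 0.25). Cox6b2 was at 0.821, 0.874 and 1.16 RPKM on day 1. Leaving out culture 1 of either group gave 0 calls, and culture 2 of the day 1 group 1. Between days 3 and 4, 13 were higher and 0 lower, against 20.5% and 34.3%, with a median of 0.12 against -0.10. The share of members called higher was below that of all genes. Cox7a1 had 24.8, 26.7, 24.4 and 27.9 RPKM on day 4 against 1.13, 3.91, 1.26 and 2.19 RPKM on day 3 (3.19 ± 0.28; limma, adjusted p = 2.17e-07), 9.13-fold higher on the scale of RPKM + 1. Ndufa6 had 390, 479, 406 and 427 RPKM on day 4 against 175, 199, 171 and 172 RPKM on day 3 (1.24 ± 0.11). Neither gene overlapped between the days, and Sdhb rose by 0.68 ± 0.11. In this step 9 of 10 enterocyte markers were higher, with a median of 4.14. Summed goblet markers were at 1686 to 2060 RPKM on day 4 against 672 to 853 RPKM on day 3. Summed stem and proliferating markers were at 375 to 473 RPKM against 646 to 689 RPKM. The part of these markers was not tested. The count was 31 under median-of-ratios scaling, where the calls over all genes moved from 2557 higher and 4273 lower to 3465 and 3150, 6 without culture 2 of the day 4 group and 5 with the shallow library.

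Between days 4 and 5, 0 members were higher and 0 lower, against 2.11% and 1.33% of all genes (limma; before adjustment, 4 were higher and 1 lower at p under 0.05). Cox7a1 was at 0.96 ± 0.28 (limma, adjusted p = 0.0739). Ndufa6 had 519, 631, 463 and 478 RPKM on day 5 against 390, 479, 406 and 427 RPKM on day 4, overlapping in part, and was at 0.29 ± 0.11. Median-of-ratios scaling moved the calls over all genes from 262 higher and 166 lower to 359 and 70, and leaving out culture 2 of the day 5 group gave 1 member called.

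Genes that build, feed or govern the chain were listed by role, and their counts with RXRi on day 5 stand beside 28.7% higher and 35.1% lower of all genes. Of 17 genes of the citric acid cycle and pyruvate dehydrogenase, 16 fell and 0 rose (median -0.84), among them the malate dehydrogenase gene Mdh2 (-2.08 ± 0.14) and the succinate ligase gene Suclg1 (-1.18 ± 0.087). Of 44 tested assembly factors, 30 fell and 5 rose (median -0.44). Cox16, a complex IV assembly factor, changed by -1.30 ± 0.092, and Ndufaf6, a complex I assembly factor, by -1.03 ± 0.11. In the other direction were Surf1 (0.48 ± 0.085) and the copper chaperone Cox17 (0.50 ± 0.10), both for complex IV, and Uqcc2 (0.47 ± 0.11), for complex III. Of 19 electron carriers and ubiquinone-linked enzymes, 11 fell and 4 rose (median -0.74): the ubiquinone synthesis genes Coq8a, Pdss1 and Pdss2 changed by -3.50 ± 0.20, -2.88 ± 0.20 and -1.43 ± 0.090, and the glycerol 3-phosphate dehydrogenase gene Gpd2 by 0.59 ± 0.12.

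Of 18 regulators of mitochondrial genes, 11 fell and 4 rose with RXRi on day 5 (median -0.52). Ppara, the fatty acid receptor that pairs with RXR, changed by -3.23 ± 0.15, the coactivator gene Ppargc1b by -1.81 ± 0.090 and the mitochondrial transcription factor gene Tfam by -1.42 ± 0.094. The related receptor genes Ppard and Pparg changed by 1.33 ± 0.12 and 1.24 ± 0.23, and Myc by 0.43 ± 0.17. Of 7 tested inhibitors and uncouplers, 3 fell and 1 rose: Atpif1, which encodes the ATP synthase inhibitor, changed by -1.54 ± 0.11, Ucp2, a proton carrier of the inner membrane, by -0.49 ± 0.11, and the protease gene Oma1 by 0.57 ± 0.079.

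Over the mean of the 4 days with atRA, 3 of 44 assembly factors were higher and 2 lower, 3 and 0 of 17 citric acid cycle and pyruvate dehydrogenase genes, 4 and 3 of 19 carriers, 2 and 3 of 18 regulators and 2 and 0 of 7 inhibitors and uncouplers, against 7.98% and 15.0% of all genes. Ppara changed by 1.71 ± 0.076, the electron transfer flavoprotein genes Etfb and Etfdh, which bring electrons from fatty acid oxidation, by 0.53 ± 0.058 and 0.50 ± 0.046, Ucp2 by 0.54 ± 0.056 and the sulfide oxidase gene Sqor by -0.55 ± 0.061. On day 5 compared with day 0 in DMSO, 9 of 17 citric acid cycle and pyruvate dehydrogenase genes were higher and 3 lower, and 7 of 44 assembly factors were higher and 14 lower, against 18.7% and 51.1% of all genes.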

How the data were processed

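Messenger RNA of intestinal organoids was sequenced in 52 libraries, 51 of which were used. Values are RPKM as deposited; per the submitters' processing notes STAR 2.5.2b, bcl2fastq 2.17 and mm10 were used, and neither the counting tool and annotation nor the strand setting is stated in those notes. Of the values above 0, 100.0% are whole reads within 0.001 read, and the recovered reads gave the depths; the depth limits the lowest level seen, at most 0.233 RPKM for 3 reads in a gene of 1 kilobase, and this covers counting error only.

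RPKM were taken as log2(RPKM + 1), duplicates were averaged to 26 culture means (2 per group), and limma 3.58.1 in R 4.3.3 (trend and robust) was fitted over all 13 groups, with 13 residual degrees of freedom. A gene was tested if 4 or more libraries held 1 RPKM or more of it (12443 genes, with 11673 left out), and p-values were Benjamini-Hochberg adjusted over them, with a threshold of 0.05. Fold changes on this scale understate those of low genes. There were 18 comparisons. The cultures come from 2 littermates that recur in every group, and the main fit held no term for the mouse. Its p-values rest on the gap between the 2 cultures of a group, pooled over the 13 groups. The 13 residual degrees of freedom are therefore not independent animals. In simulated reads, changes were set in the day 5 RXRi group only (11663 genes). Of these, 100 of 100 genes changed 4-fold, 100 of 100 changed 2-fold and 18 of 11463 unchanged genes were called. The simulation took gene means over all libraries, gave every gene the same spread between cultures and changed only genes with many reads. It does not show the power for genes with fewer reads or a larger spread.

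Same-numbered cultures come from the same mouse, which pairs them. Their deviations from the group means had a median correlation of 0.149 over 78 pairs of groups (-0.317 to 0.759, with 47 above 0.1). The alternatives were the shallow library kept, a pseudocount of 0.1 RPKM, no filter, median-of-ratios scaling, the culture as a block, limma-voom on recovered reads, and each culture left out.

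The member genes and gene lists were chosen with earlier results of these data known. Named members were, in each comparison and direction, up to 6 with the smallest adjusted p and 3 with the largest change; the highest, median and lowest of each complex; isoform families; members not tested; and complex II. Other members named, the per-library examples, the core and accessory groups and the descriptions of length and promoters were chosen after values were seen. Single values of some genes are not reported here, though counts and medians include them. Promoters and coordinates are from RefSeq GRCm38.p6. No pair of libraries held identical values.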

Additional observations from a re-analysis of the deposited data

Results flagged for a closer look

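For 49 members the RXRi effect was lower on day 5 than on day 1, by the test of the difference itself (limma, Benjamini-Hochberg adjusted).

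Each of 228 sets held 4 libraries, the duplicates of 2 cultures. The gap of the highest or lowest library to its neighbour was compared with the range of the set. A library lay past Dixon's critical value in 14 sets. The usual chance rate of about 5% holds for independent values. Duplicates of a culture are not independent and the sets share libraries, so the 14 cannot be set against that rate. In the day 3 RXRi group the complex I sum was 3902 RPKM in culture 1, duplicate 1. In the day 3 DMSO group, culture 1, duplicate 1 stood apart for the sums of complex II (828 RPKM) and complex III (2031 RPKM), culture 1, duplicate 2 for Ndufa6 (199 RPKM) and Ndufa1 (61.04 RPKM), and culture 2, duplicate 1 for Uqcrfs1 (207 RPKM). In the day 1 RXRi group, culture 2, duplicate 1 stood apart for Sdha (157 RPKM), Cox7a2 (209 RPKM) and Uqcrfs1 (169 RPKM). In the day 4 RXRi group, culture 2, duplicate 1 stood apart for Sdhb (115 RPKM), Atp5e (404 RPKM), Ndufb5 (80.1 RPKM) and Uqcrq (595 RPKM). In the day 4 DMSO group, culture 1, duplicate 1 stood apart for Uqcrq (360 RPKM).

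The day 1 DMSO library that was left out held 245 reads on 58 members, 1.97% of its reads, against 1.62% to 1.75% in the other day 1 DMSO libraries.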

How the results depend on the processing

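The RXRi counts of called members on days 4 and 5, over the mean of the days and against atRA, and the growth of the RXRi effect, stayed within 1.5 times under every alternative run; leaving out single cultures gave 47 to 61, 55 to 69, 61 to 69, 68 to 72 and 41 to 55. Counts that moved further were as follows. With the shallow library kept, 5 members were called between days 4 and 3 and 13 between days 5 and 0 in DMSO, 1 with atRA on day 3 and 3 over its mean, 15 with RXRi on day 1 and 14 on day 3. With median-of-ratios scaling, 31 were called between days 4 and 3, 69 between days 5 and 0, 2 with atRA on day 4 and 16 over its mean. With no filter, 1 was called with atRA on day 5. Leaving out single cultures gave 0 to 3 between days 3 and 1, 6 to 15 between days 4 and 3, 0 to 1 between days 5 and 4 and 17 to 28 between days 5 and 0; 1 to 3 with atRA on day 3, 0 to 1 on day 4, 0 to 2 on day 5 (2 without culture 1 of the atRA group), 2 to 17 over its mean and 0 to 1 for the change of its effect (1 without culture 2 of the day 5 DMSO group); and 0 to 3 with RXRi on day 1 and 13 to 18 on day 3. Except where a value shows it, the cause was not tested.

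With the culture as a replicate block, 68 members were called with RXRi on day 5, 26 on day 3, 8 on day 1 and 67 over its mean. There were 53 for the growth of its effect, 9 with atRA over its mean and 33 between days 5 and 0. No count moved by over 1.5 times. The 434 single values followed were the calls of the main fit and the 12 members not called with RXRi on day 5. Calls gained by other members show only in the counts. Of the 434, 2 lost and 2 gained a call, all 4 given in the report.

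Signs changed for the following. With the shallow library, day 1 against day 0 gave -1.36 for Cox5a, -1.13 for Ndufb6, -1.05 for Atp5md, -1.20 for Ndufb3, -1.49 for Uqcrb and -1.37 for Ndufa5, and the RXRi mean gave 0.18 for Cox5a, 0.19 for Cox6c, 0.094 for Ndufb6, 0.34 for Ndufb9, 0.10 for Atp5md, 0.065 for Uqcr11, 0.088 for Uqcrb, 0.13 for Ndufb4 and 0.12 for Ndufb2. With RXRi on day 5, Ndufa7 was at 0.020 under scaling and between -0.097 and 0.028, Ndufa2 between -0.40 and 0.047 and Ndufs5 between -0.028 and 0.13 with single cultures left out. With limma-voom on the recovered reads, 3 of the 434 values lost a call, Cox6b2 on day 1 against day 0 (limma-voom, adjusted p = 0.0588), Sdha with RXRi on day 1 (adjusted p = 0.0503) and Ndufs5-ps over the RXRi mean (adjusted p = 0.0502), and 2 gained one, Ndufa4 (adjusted p = 0.0451) and Uqcrq (adjusted p = 0.0448) with RXRi on day 5. In the library of 12443 reads, 3 reads in 1 kilobase are 241.1 RPKM, so its values are imprecise.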
